A study of Mus musculus with 4 samples.

Results

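The immediate early transcription factors examined here are 10 genes given by symbol, Fos, Fosb, Fosl1, Fosl2, Jun, Junb, Jund, Egr1, Egr2 and Atf3. Each was found by exact match among the 25393 genes of the deposited table, and that rule uses no measured value. The RNA-seq libraries came from untreated primary astrocytes of C57BL/6 pups, prepared from cortex and hippocampus at postnatal day 1, with 2 libraries of wild-type (WT) and 2 of Tet1-/- (KO) genotype. Tet1 is a DNA dioxygenase that makes 5-hydroxymethylcytosine, and the knockout was constitutive, so that no Cre or promoter limits it to a cell type. Each isolation used 2 pups, and the cells were grown for about 7 days, shaken at 260 rpm and kept for a further 24 h before RNA was taken. The study's methods differ from these sample descriptions, with wider ranges of pup age and culture time and a slower shaking speed. By those methods, fresh medium with serum was given after the shaking. The study describes its RNA-seq samples as biological repeats, and states more of them per genotype than the 2 analysed here. The labels of the 2 libraries per genotype analysed here do not say whether they were separate cultures, so the tests measure only the spread between these libraries, which may be technical.

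Reads on genes numbered from 18749610 to 22673555 per library. Tet1 was not lower in the KO-labelled libraries, at 173 and 463 normalized counts beside 266 and 121 in WT, so these libraries are called KO-labelled throughout and every direction rests on the label. The count covers the whole gene and which exons the knockout removes is not given in the sources used here, so RNA without the targeted exons would be counted too, and this check cannot tell it from intact Tet1 RNA. A normalized count is the number of reads on a gene divided by the size factor of its library. All 9 astrocyte markers were detected in all 4 libraries, with 1 higher and 5 lower without overlap in the KO-labelled ones, where 22.5% and 25.4% of all tested genes were. Their summed level per length, as FPKM (fragments per kilobase of gene, scaled to the reads on genes), was 1490 and 1434 in WT and 2570 and 380 in KO-labelled replicates 1 and 2. Gfap was the largest part of this sum in each library, at 687 and 765 FPKM in WT and 1871 and 117 FPKM in KO-labelled replicates 1 and 2. KO-labelled replicate 2 thus stood apart from the other libraries, with the lowest astrocyte marker sum and, at 1413 FPKM, the highest sum of the 9 meningeal, mural and endothelial markers, which was 77.6 and 269 in WT and 591 in KO-labelled replicate 1. Most of that sum was Acta2, a smooth muscle actin, and the list as a whole ran the other way, with 3 of its 9 genes higher and 6 lower in the KO-labelled libraries, 2 higher and 3 lower without overlap and a median log2 fold change of -0.53. The endothelial marker Pecam1 lay between 2.14 and 7.36 normalized counts.

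Immediate early genes are transcribed within minutes of a stimulus, from promoters that are already poised, and need no new protein for it. Fos and Jun proteins carry a basic region and a leucine zipper (bZIP) and pair to form the factor AP-1. Jun proteins can pair among themselves, whereas Fos proteins need a Jun partner. Egr1 and Egr2 are zinc finger factors induced by the same signals, and Atf3 is a stress-induced bZIP protein that mostly represses. In cultured astrocytes serum, growth factors, injury and calcium are known to induce these genes.

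Of the 10 genes, 3 were higher in both KO-labelled libraries than in both WT libraries (Egr1, Fosl1 and Fosb), 3 were lower in both (Junb, Atf3 and Jund), and the 2 groups overlapped for Fos, Fosl2, Jun and Egr2. Across the 22094 tested genes 22.5% were higher without overlap and 25.4% were lower without overlap, so the 6 members stood beside a background of 47.9%. Above a mean of 20, which all 10 members exceed, these shares were 27.1%, 23.9% and 51.1%. By the sign of the log2 fold change alone 7 members were higher, where 46.3% of all tested genes were. No member passed an adjusted p under 0.05 in limma, nor did any other gene (0%), nor any in edgeR (0%). DESeq2 called no member, and called 1088 of all tested genes (4.92%; 1.29% higher and 3.63% lower). At an unadjusted limma p under 0.05 there were 2 members, Atf3 and Junb, both lower, where 13.7% of all tested genes passed in either direction and 9.18% were lower. The median log2 fold change, labelled KO over WT on log2(normalized count + 1), was 0.16 over the members and -0.07 over all tested genes. With 2 libraries against 2, an exact two-sided permutation test cannot go below a p of 0.333.

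**Figure D1:**
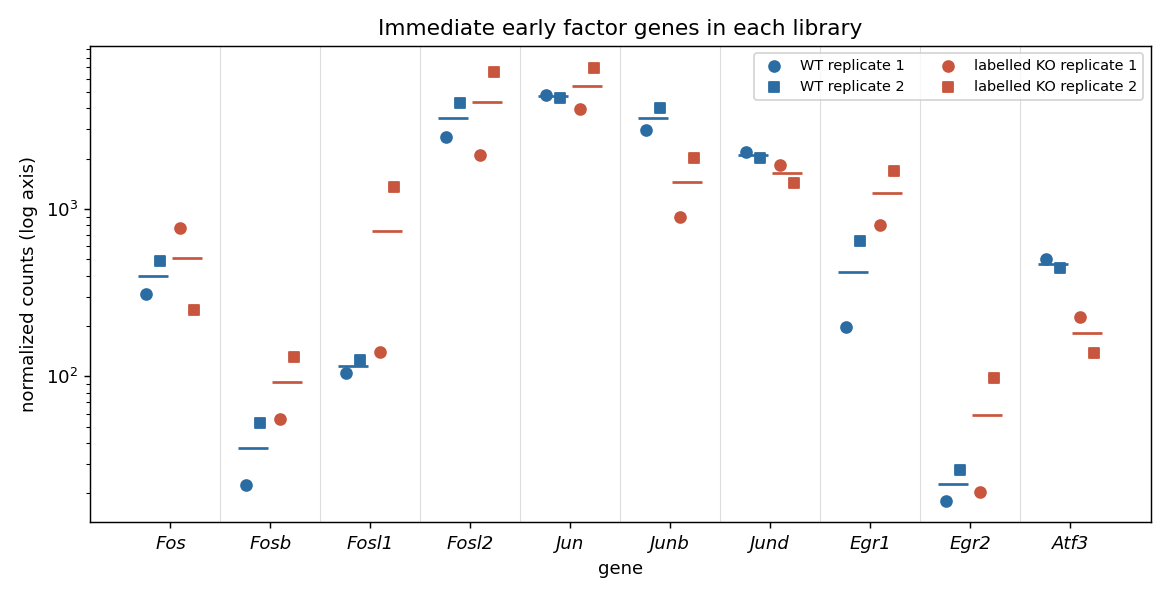
Normalized counts of the 10 genes (log axis) in each of the 4 libraries; blue points are WT, red points are labelled KO, circles are replicate 1, squares are replicate 2 and short lines are group means. Junb and Atf3 lie lower in both red points, and for Fosl1 the square of KO-labelled replicate 2 (1344) stands far above the other 3 libraries (105 to 140).

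The promoters of members are shown because immediate early induction is known to run through short elements close to the transcription start. RefSeq windows (GRCm38.p6) were used for 8 of the 10 genes. No window was found for Fosl1, and the chromosome that holds Egr1 was left out of the search beforehand. The 250 bases before the start were searched on both strands for the AP-1 heptamer TGANTCA, the cAMP response element TGACGTCA, its core TGACG, the EGR motif GCGNGGGCG and the serum response element core, the CArG box. The TGACG core lies within the full cAMP response element and was not among the motifs planned at first. Fos, the archetype of the group, is shown beside Fosb, which was higher without overlap, and Junb and Atf3, which were lower without overlap. Each is given 5′ to 3′ on the strand of the gene, with motif matches in capitals. The Fos window is chr12:85473640-85473889 (plus strand), Fosb is chr7:19310046-19310295 (minus strand), Junb is chr8:84978749-84978998 (minus strand) and Atf3 is chr1:191183334-191183583 (minus strand).
Fos: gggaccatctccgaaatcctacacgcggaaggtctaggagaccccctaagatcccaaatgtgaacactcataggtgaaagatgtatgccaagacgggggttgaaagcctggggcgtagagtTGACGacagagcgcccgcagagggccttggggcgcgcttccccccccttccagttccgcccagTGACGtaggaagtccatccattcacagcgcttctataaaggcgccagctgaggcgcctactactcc
Fosb: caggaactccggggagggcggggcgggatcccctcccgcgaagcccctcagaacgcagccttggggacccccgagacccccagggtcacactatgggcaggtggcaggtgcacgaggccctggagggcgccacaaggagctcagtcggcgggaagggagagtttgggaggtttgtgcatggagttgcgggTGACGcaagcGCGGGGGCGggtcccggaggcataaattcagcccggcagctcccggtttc
Junb: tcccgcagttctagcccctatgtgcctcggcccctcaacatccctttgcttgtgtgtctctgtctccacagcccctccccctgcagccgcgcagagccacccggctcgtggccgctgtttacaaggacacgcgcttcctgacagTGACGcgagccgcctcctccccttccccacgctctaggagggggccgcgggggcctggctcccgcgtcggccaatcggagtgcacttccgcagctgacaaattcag
Atf3: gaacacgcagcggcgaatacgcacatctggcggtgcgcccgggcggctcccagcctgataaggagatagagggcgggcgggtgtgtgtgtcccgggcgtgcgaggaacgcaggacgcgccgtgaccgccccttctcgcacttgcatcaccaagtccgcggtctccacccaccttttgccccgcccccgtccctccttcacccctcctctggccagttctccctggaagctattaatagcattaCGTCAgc

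The TGACG core was in a window of 5 of the 8 genes (Fos, Fosb, Junb, Egr2 and Atf3), where 17.8% of the 32851 windows of all genes held it. These 8 genes have 12 windows, 5 of them for Egr2. A gene was counted if any of its windows held the core, so this count and the share of windows are unlike measures. In Fos the core began 129 and 66 bases before the start, in Fosb 60, in Junb 106 and in Atf3 7. The EGR motif was in the Fosb and Fosl2 windows and in 4.7% of all windows. A CArG box was found for Egr2 alone, whose 5 windows belong to alternative starts and partly overlap: 3 of them hold the same site and 1 more holds another. Over all windows 1.47% held one. Bases further upstream, and the promoter of Egr1, were not searched, so a site there would be missed. No member window held the full cAMP response element (1.55% of all windows) or the AP-1 heptamer (6.75%). The core was thus in windows of genes on either side of the comparison, in Fosb as well as in Junb and Atf3. The Atf3 window lies 34706 bases inside the deposited gene, which spans an upstream start, and the Jund window begins a transcript 1210 bases before the deposited gene.

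Among the Fos family, Fosl1, which encodes Fra-1 and carries no strong activation domain of its own, had the largest log2 fold change. It lies at chr19:5447703-5455945 (plus strand, mm10). It had 105 and 126 normalized counts in WT, against 140 and 1344 in KO-labelled replicates 1 and 2. KO-labelled replicate 2 was thus 9.58 times replicate 1, while replicate 1 lay just above both WT libraries. Its mean was 115 ± 15.1 in WT and 742 ± 851 under the KO label (SD, n = 2). The log2 fold change was 1.91 (SE 1.05, 95% interval -0.73 to 4.56, limma adjusted p = 0.478), smaller than the log2 difference of 3.25 between the KO-labelled libraries. In DESeq2 the log2 fold change was 2.69 and the adjusted p 0.0532, the lowest of a range from 0.0532 to 0.967 over the other settings. Without KO-labelled replicate 2 the log2 fold change was 0.29, and without KO-labelled replicate 1 it was 3.54. Fosl1 overlaps Ccdc85b on the opposite strand, and the kit's strand setting is not given in the sources used here.

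Fosb (chr7:19302696-19310051, minus strand), whose product forms activating dimers with Jun proteins, had 22.4 and 52.4 normalized counts in WT against 55.7 and 130 in the KO-labelled libraries. The groups did not overlap, but WT replicate 2 and KO-labelled replicate 1 were nearly level, and after scaling to equal sums they did overlap. Its log2 fold change was 1.28 (SE 0.72, 95% interval -0.52 to 3.08, adjusted p = 0.484 from limma). It was 0.68 without KO-labelled replicate 2, 0.69 without WT replicate 1, 1.88 without WT replicate 2 and 1.89 without KO-labelled replicate 1. Between 21 and 144 reads per library stood behind these values. The step between the labels was only slightly larger than the log2 differences within the labels, 1.19 for WT and 1.21 for the KO label.

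Fos (chr12:85473890-85477273, plus strand), the founding member of the family, had 309 and 489 normalized counts in WT against 769 and 250 in the KO-labelled libraries. KO-labelled replicate 1 was the highest of the 4 libraries and replicate 2 the lowest, so the group means of 399 ± 127 and 509 ± 367 (SD, n = 2) hide opposite deviations. The log2 fold change of 0.17 (SE 0.61, 95% interval -1.37 to 1.72, adjusted p = 0.928 from limma) turned to -0.64 without KO-labelled replicate 1 and to -0.16 without WT replicate 1. Fosl2 (chr5:32135801-32157842, plus strand) encodes Fra-2, the Fos protein that persists longest after a stimulus. It had 2686 and 4267 normalized counts in WT against 2107 and 6604 in the KO-labelled libraries. Here the order was the reverse of that of Fos, with KO-labelled replicate 1 lowest and replicate 2 highest. Its log2 fold change of 0.14 (SE 0.60, 95% interval -1.38 to 1.66, adjusted p = 0.940 from limma) became -0.68 without KO-labelled replicate 2 and -0.19 without WT replicate 1.

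The make-up of the Fos family was alike in the WT libraries and unlike in the KO-labelled ones. Per length, Fosl2 made up 58.6% and 60.3% of the family's summed FPKM in WT, and Fos 27.8% and 28.5%. In KO-labelled replicate 1 Fos was the largest part with 51.4%, and Fosl2 was 34.2%. In KO-labelled replicate 2 Fosl1 was the largest with 49.3%, where it had 10.1% to 12.9% in the other 3 libraries, and Fos was 6.65%. Fosb had at most 1.40% in a library. This order of the parts held only per length: in normalized counts Fosl2 was the largest part of all 4 libraries, with 86.0% and 86.5% in WT and 68.6% and 79.3% in KO-labelled replicates 1 and 2. On that scale Fosl1 had 16.1% in KO-labelled replicate 2. The summed level was 23.7 and 35.1 FPKM in WT against 28.7 and 79.1 FPKM in the KO-labelled libraries. No test was made of these shares.

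**Figure D2:**
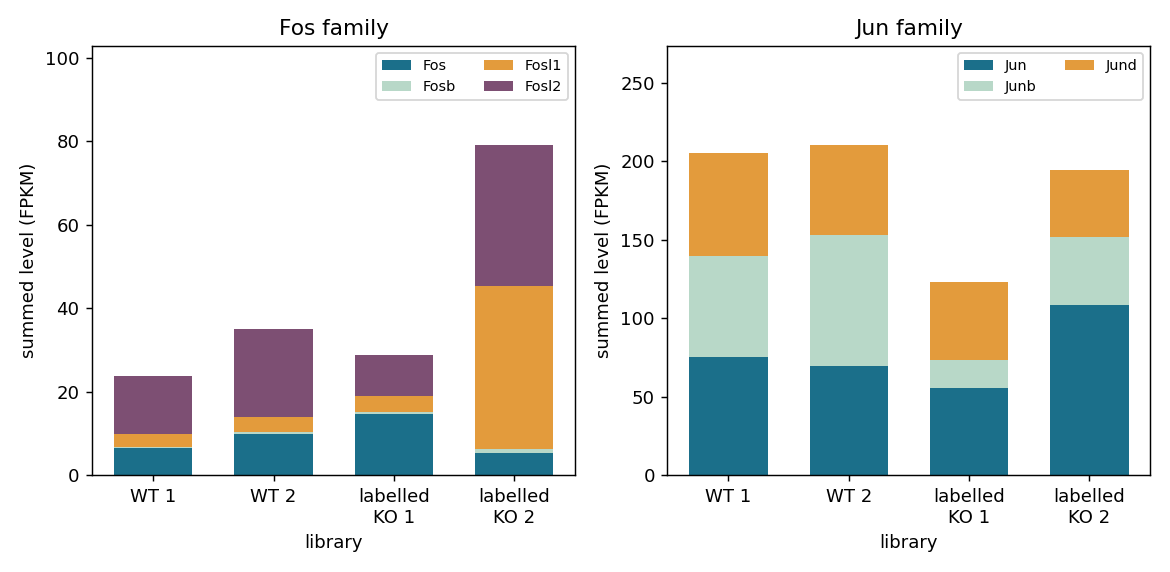
Summed FPKM of the Fos family (left) and of the Jun family (right) in each library, with a stacked bar part for each gene. Fosl2 is the largest part of the Fos family in WT (58.6% and 60.3%), Fos in KO-labelled replicate 1 (51.4%) and Fosl1 in KO-labelled replicate 2 (49.3%), whereas without the length correction Fosl2 is the largest in all 4 libraries.

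Among the Jun proteins, which can bind AP-1 sites with or without a Fos partner, Junb (chr8:84974484-84978718, minus strand) was lower in the KO-labelled libraries. JunB is a weaker activator than Jun and can oppose it. Junb had 2959 and 3998 normalized counts in WT against 892 and 2020 in the KO-labelled libraries. KO-labelled values were both below those of WT, and the WT mean was 2.39 times the mean labelled KO. The log2 fold change was -1.36 (SE 0.47, 95% interval -2.53 to -0.19), with an unadjusted p of 0.0304 and an adjusted p of 0.321 from limma. It exceeded the log2 differences within the labels, 0.43 for WT and 1.18 for labelled KO, and ran from -1.95 (without KO-labelled replicate 2) to -0.77 (without KO-labelled replicate 1) when single libraries were left out. Junb overlaps Prdx2 on the opposite strand.

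Jund (chr8:70698949-70700616, plus strand), the most constant of the Jun genes and usually the least inducible, had 2183 and 2005 normalized counts in WT against 1841 and 1423 in the KO-labelled libraries. The groups did not overlap, yet the log2 fold change of -0.37 (SE 0.29, 95% interval -1.10 to 0.37, adjusted p = 0.615 from limma) was about the same as the log2 difference of 0.37 between the KO-labelled libraries. Without KO-labelled replicate 2 it was -0.18, and without KO-labelled replicate 1 it was -0.56. Jun itself (chr4:95049034-95052222, minus strand), the strongest activator of the 3, had 4806 and 4613 normalized counts in WT against 3933 and 6990 in the KO-labelled libraries. The WT libraries thus lay within the KO-labelled ones. Its log2 fold change was 0.16 (SE 0.37, 95% interval -0.78 to 1.09, adjusted p = 0.883 from limma) and became -0.26 without KO-labelled replicate 2. Jun and Jund each overlap an annotated antisense gene, Junos and Gm11175.

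Per length, the Jun genes were nearly equal parts of their family in WT, with Jun at 36.7% and 33.0%, Junb at 31.4% and 39.6% and Jund at 31.9% and 27.4% of the summed FPKM. In the KO-labelled libraries, Junb was the smallest part in replicate 1 with 14.2% and had 22.4% in replicate 2, while Jun was the largest part of both with 45.3% and 55.9%. The Jun family sum was 205 and 210 FPKM in WT against 123 and 194 FPKM in the KO-labelled libraries. Summed Jun family FPKM was 8.66 and 6.00 times summed Fos family FPKM in WT, and 4.29 and 2.46 times in the KO-labelled libraries. Per length this ratio was thus lower in both KO-labelled libraries than in both WT libraries, but without the length correction it was not. In normalized counts the Jun and Fos family sums were 10616 and 4934 in WT replicate 2, and 6665 and 3071 in KO-labelled replicate 1. On that scale the ratio of KO-labelled replicate 1 was slightly above that of WT replicate 2.

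Atf3 (chr1:191170296-191218039, minus strand) was the other member that was lower with an unadjusted p under 0.05. It had 500 and 443 normalized counts in WT against 227 and 139 in the KO-labelled libraries, the latter both below WT. The WT mean of 472 ± 40.4 was 2.58 times the mean of 183 ± 62.3 labelled KO (SD, n = 2). The log2 fold change was -1.40 (SE 0.40, 95% interval -2.40 to -0.40), with an unadjusted p of 0.0148 and an adjusted p of 0.264 from limma. The adjusted p was 0.0916 in DESeq2 (log2 fold change -1.37) and 0.309 in edgeR (-1.41), in a range from 0.0916 to 0.967 over the other settings. Leaving out single libraries gave log2 fold changes from -1.76 to -1.05. The labels differed by more than the libraries within them did, at log2 differences of 0.17 in WT and 0.71 in labelled KO. Atf3 overlaps Gm24748, a small RNA gene, on the opposite strand.

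The lower values of Junb and Atf3 stood beside lower microglial markers. Of 14 microglial markers 14 were lower in the KO-labelled libraries, 13 of them without overlap, against the background of 25.4%. Their summed level was 75.9 and 123 FPKM in WT against 26.5 and 16.7 FPKM in the KO-labelled libraries, and P2ry12 was at 0 in KO-labelled replicate 1. In bulk RNA, fewer cells of a type and less RNA per cell cannot be told apart. The part of these markers in the values of Junb and Atf3 was not tested.

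Egr1, a factor that carries growth factor and calcium signals to later target genes, had 197 and 646 normalized counts in WT against 801 and 1682 in the KO-labelled libraries. KO-labelled values were both above those of WT, though KO-labelled replicate 1 was only slightly above WT replicate 2. The mean was 2.95 times that of WT. The log2 fold change was 1.70 (SE 0.68, 95% interval -0.00 to 3.40), with an unadjusted p of 0.0504 and an adjusted p of 0.365 from limma. The WT libraries were themselves 1.70 apart on the log2 scale. Leaving out single libraries gave values from 0.85 (without WT replicate 1) to 2.55 (without WT replicate 2).

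Egr2 (chr10:67535475-67542188, plus strand), also called Krox20 and needed for hindbrain patterning and for myelination by Schwann cells, was far lower, with 18.1 and 27.6 normalized counts in WT against 20.3 and 97.3 in the KO-labelled libraries. Only KO-labelled replicate 2 was above both WT libraries, and the reads behind these values ran from 17 to 108. Its log2 fold change of 0.97 (SE 0.89, 95% interval -1.27 to 3.21, adjusted p = 0.663 from limma) became -0.13 without KO-labelled replicate 2. Egr1 made up 89.2% and 94.7% of the summed FPKM of the pair in WT and 96.8% and 92.9% in the KO-labelled libraries.

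**Figure D3:**
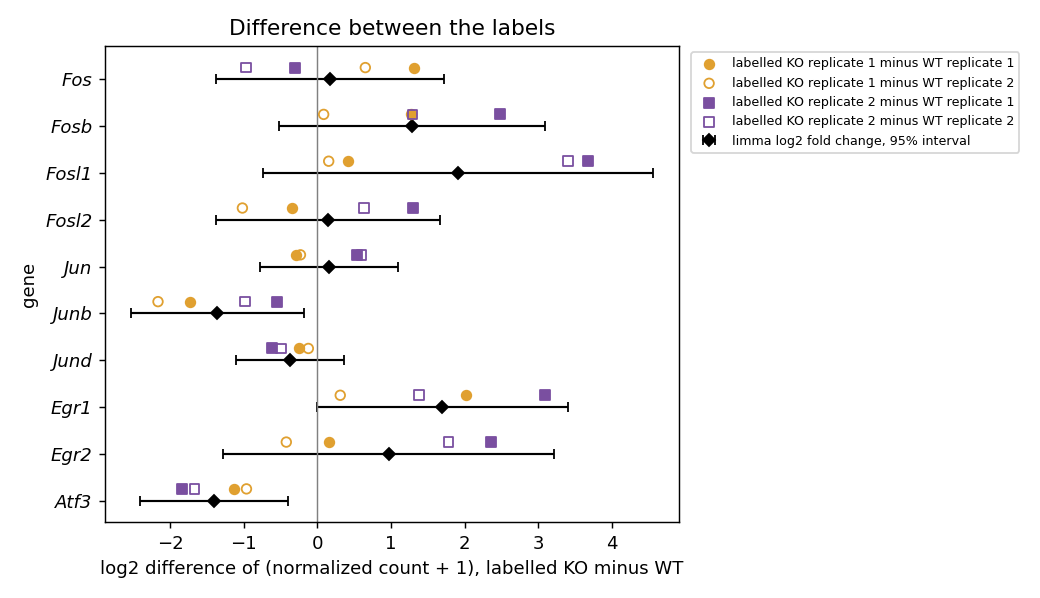
Log2 difference of (normalized count + 1) between the labels for each gene; black diamonds are the limma log2 fold change with its 95% interval, and coloured points are the 4 single differences, orange circles for KO-labelled replicate 1 and purple squares for replicate 2, filled against WT replicate 1 and open against WT replicate 2. The interval leaves out 0 for Junb and Atf3, and for Fos, Fosl2, Jun and Egr2 the single differences fall on both sides of 0.

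For 7 of the 10 genes, the libraries of at least 1 label differed from each other by more than the label means did. The KO-labelled libraries were more than 2-fold apart for 7 of the 10 genes, where 38.3% of all tested genes were, and 30.9% of those with a mean of at least 20. The WT libraries were more than 2-fold apart for 2 genes, Egr1 and Fosb, beside 23.7% of all tested genes and 13.1% of those with a mean of at least 20. KO-labelled replicate 2 was above replicate 1 for 7 of the genes, with Fos, Jund and Atf3 as the exceptions, and WT replicate 2 was likewise above WT replicate 1 for 7. Over all tested genes these shares were 52.3% and 52.6%. The difference between the labels was larger than both differences within a label for Fosb, Junb and Atf3, 3 of the 10, where 33.9% of all tested genes and 36.1% of those with a mean of at least 20 had such a difference. KO-labelled replicate 2 was also the library with the lowest astrocyte marker sum, as given above, and the part of that in these values was not tested.

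**Figure D4:**
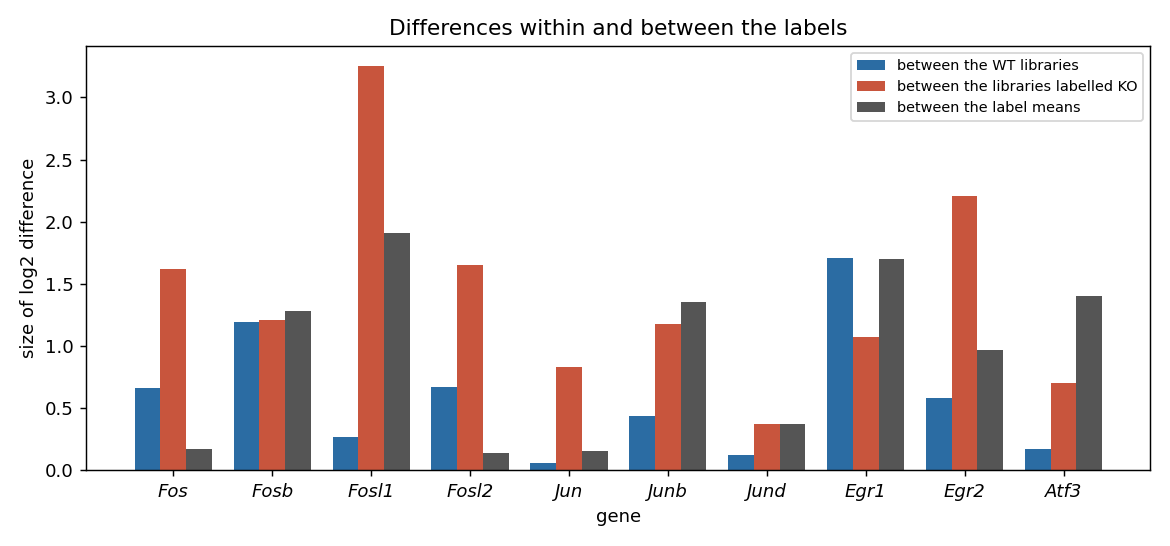
Size of the log2 difference for each gene between the WT libraries (blue), between the KO-labelled libraries (red) and between the label means (grey). The dark grey bar is the tallest for Fosb, Junb and Atf3, and the red bar of Fosl1 reaches 3.25.

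Levels can be set side by side only per length. In WT the order by mean FPKM was Junb (73.8), Jun (72.3), Jund (61.5), Fosl2 (17.5), Atf3 (10.7), Fos (8.28), Egr1 (4.55), Fosl1 (3.30), Egr2 (0.328) and Fosb (0.291). The libraries overlapped between the neighbours Junb and Jun, Atf3 and Fos, Fos and Egr1, Egr1 and Fosl1, and Egr2 and Fosb, so these neighbours did not differ beyond their spread. Jun family genes thus stood above all Fos family genes in WT. In the KO-labelled libraries the order was Jun (82.1), Jund (46.0), Junb (30.5), Fosl2 (21.8), Fosl1 (21.3), Egr1 (13.3), Fos (14.7 and 5.26 in its libraries), Atf3 (3.97), Egr2 (0.844) and Fosb (0.716). The ranges from Jund to Fos each overlapped with that of the next gene, and those of Jun and Jund, Fos and Atf3, and Atf3 and Egr2 did not. By mean FPKM over the 4 libraries Jun stood above 97.6% of the listed genes and Fosb above 41.4%.

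Other genes of the pathway were read from the same fit in 5 lists. No gene of these lists passed an adjusted p under 0.05 in limma or edgeR. The other immediate early response genes were mostly higher in the KO-labelled libraries, 15 of 19, with 9 higher and 0 lower without overlap (background 22.5% and 25.4%). At an unadjusted limma p under 0.05, 5 of the 19 were higher and 0 lower (background 4.54% and 9.18%), and the list's median log2 fold change was 0.58. Both counts include genes with few reads, named after their values were seen. Egr4 had 0 reads in both WT libraries and 5 and 4 in the KO-labelled ones. Arc had 3 and 17 reads in WT against 50 and 84 in the KO-labelled libraries. Npas4, a factor induced by calcium, had 10.7 and 22.1 normalized counts in WT against 68.5 and 131 in the KO-labelled libraries (log2 fold change 2.54, SE 0.68, adjusted p = 0.248 from limma). Klf4, a zinc finger factor, had 93.9 and 192 in WT against 200.2 and 1261 in the KO-labelled libraries (log2 fold change 1.90, SE 0.93, adjusted p = 0.440 from limma). For Klf4 KO-labelled replicate 1 was barely above WT replicate 2. DESeq2 called Npas4 and Nr4a1, an orphan nuclear receptor named after its values were seen, where it called 1.29% of all tested genes as higher. The median of the list was -0.00157 without KO-labelled replicate 2 and 0.90 without KO-labelled replicate 1.

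Feedback inhibitors of the same signals, the MAP kinase phosphatases, Sprouty proteins and the EGR corepressors, were higher in 10 of 11 genes, with 6 higher and 0 lower without overlap (background 22.5% and 25.4%). Both the 10 and the 6 include Dusp2, which had 0 reads in both WT libraries and 1 and 4 reads in the KO-labelled ones. At an unadjusted limma p under 0.05 there were 4 higher and 0 lower (background 4.54% and 9.18%), and the median log2 fold change was 0.92 (0.31 without KO-labelled replicate 2 and 1.52 without replicate 1). Spry1, an inhibitor of receptor tyrosine kinase signalling, had 281 and 173 normalized counts in WT against 1286 and 866 in the KO-labelled libraries (log2 fold change 2.25, SE 0.41, adjusted p = 0.159 from limma), and it was the gene of this list that DESeq2 called. Dusp1, a phosphatase that is itself an immediate early gene, had 505 and 1190 in WT against 1916 and 3125 in the KO-labelled libraries (log2 fold change 1.66, SE 0.51, adjusted p = 0.288 from limma). For Spry1 the KO-labelled libraries lay clear of those of WT. For Dusp1 the groups did not overlap either. Its smallest log2 difference between a KO-labelled and a WT library (0.69) was below the difference between the WT libraries (1.24).

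Upstream kinases and serum response factor with its partners were higher in 10 of 14 genes, with 5 higher and 0 lower without overlap (background 22.5% and 25.4%) and a median log2 fold change of 0.16 (0.36 without KO-labelled replicate 1). Srf, the factor that binds CArG boxes, had 575 and 844 normalized counts in WT against 1311 and 1380 in the KO-labelled libraries (log2 fold change 0.95, SE 0.32, adjusted p = 0.320 from limma). Mapk7, which encodes the kinase ERK5, had 867 and 930 in WT against 1519 and 1594 in the KO-labelled libraries (log2 fold change 0.79, SE 0.27, adjusted p = 0.326 from limma). These were the 2 genes of the list with an unadjusted p under 0.05, both higher, where 4.54% of all tested genes were.

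The other bZIP partners of Fos and Jun were split, with 3 higher and 6 lower, and 0 higher and 4 lower without overlap (background 22.5% and 25.4%). Jdp2, a repressor that pairs with Jun, had 441 and 427 normalized counts in WT against 407 and 248 in the KO-labelled libraries (log2 fold change -0.45, SE 0.38, adjusted p = 0.636 from limma). Of the others that did not overlap, Batf, Batf2 and Batf3, which are best known from immune cells, none exceeded 58.9 normalized counts in a library, and they are named after their values were seen. That highest value was of Batf3. Batf had only 5 and 8 reads in WT and 0 in both KO-labelled libraries, and Batf2 had 7 and 5 reads against 0 and 2. Batf and Batf3 were the 2 with an unadjusted limma p under 0.05, both lower, where 9.18% of all tested genes were. The median of the list was -0.26, and it was -0.12 without KO-labelled replicate 1 and -0.09 without KO-labelled replicate 2.

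Textbook AP-1 target genes did not share a direction, with 7 higher and 5 lower of 12 tested and a median log2 fold change of 0.21, which was 1.29 without KO-labelled replicate 1, -1.51 without KO-labelled replicate 2 and 0.08 without WT replicate 1. Mmp10 was below the filter. Without overlap there were 2 higher, Plau and Hmox1, and 4 lower (background 22.5% and 25.4%), of which Mmp3 and Mmp9 had an unadjusted limma p under 0.05. Of all tested genes 9.18% were lower at that limma p. Mmp3, a secreted metalloproteinase, had 224 and 110 normalized counts in WT against 6.42 and 26.1 in the KO-labelled libraries (log2 fold change -3.48, SE 0.83, adjusted p = 0.218 from limma). Spp1, osteopontin, had 4451 and 2846 in WT against 378 and 2213 in the KO-labelled libraries (log2 fold change -1.96, SE 0.84, adjusted p = 0.393 from limma). Plau, the urokinase gene, had 47.0 and 51.5 in WT against 55.7 and 230 in the KO-labelled libraries (log2 fold change 1.19, SE 0.77, adjusted p = 0.545 from limma). Hmox1, the stress-induced heme oxygenase, had a log2 fold change of 0.18 (SE 0.28, adjusted p = 0.815 from limma). DESeq2 called 3 genes of this list, Mmp3 and Mmp9 lower and Plaur higher, of which Mmp9 and Plaur are named after their values were seen. Over all tested genes it called 1.29% as higher and 3.63% as lower. Mmp9 had 77 and 76 reads in WT against 0 and 8 in KO-labelled replicates 1 and 2. Plaur had 24.5 and 59.8 normalized counts in WT against 12.8 and 1417 in KO-labelled replicates 1 and 2. Its groups thus overlapped, with only KO-labelled replicate 2 above WT (adjusted p = 0.736 from limma).

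The sets of higher genes stood beside higher proliferation markers. All 8 of them were higher without overlap (background 22.5%), with summed levels of 2.44 and 12.3 FPKM in WT against 34.3 and 60.0 FPKM in the KO-labelled libraries, and none was at 0 in a library. Their part in the values of the immediate early and feedback genes was not tested. The background for the neuronal and oligodendrocyte counts is the same, 22.5% higher and 25.4% lower without overlap. Of the neuronal markers 3 of 5 tested were higher and 0 lower without overlap (sums of 19.3 and 23.3 FPKM in WT, 28.9 and 29.7 FPKM in the KO-labelled libraries), and Snap25 was at 0 in both WT libraries. Of the 8 oligodendrocyte lineage markers 1 was higher and 2 were lower without overlap (sums of 153 and 228 FPKM in WT against 370 and 231 FPKM under the KO label), and Sox10 and Mog were at 0 in a library.

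**Figure D5:**
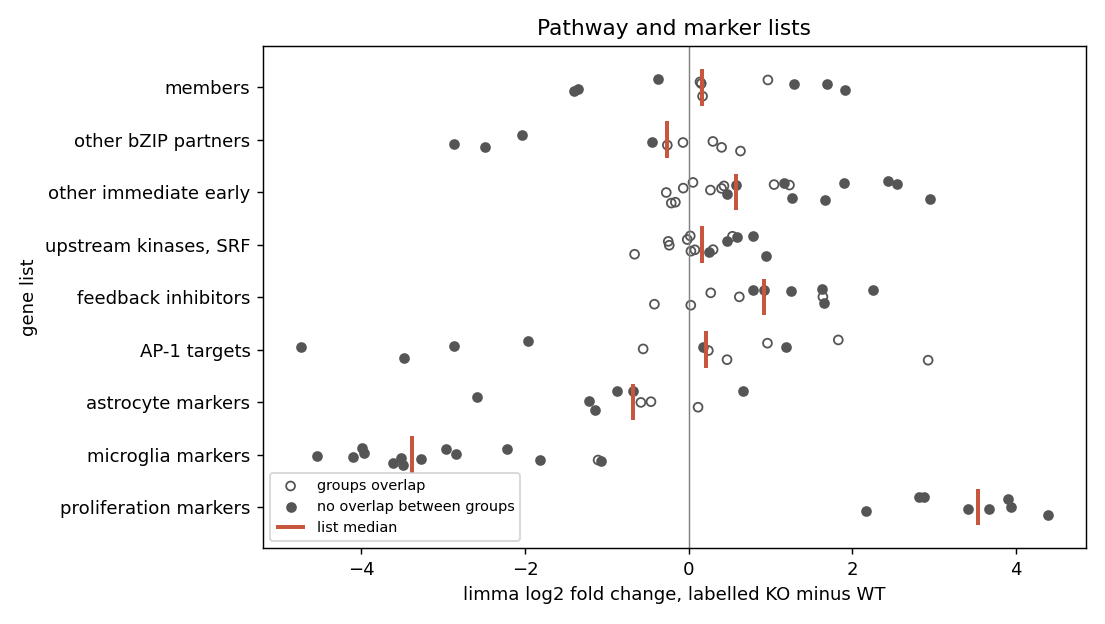
Limma log2 fold change (labelled KO over WT) of each tested gene in the member and pathway lists and in the astrocyte, microglia and proliferation marker lists; filled points are genes whose groups do not overlap, open points are genes whose groups overlap and red lines are list medians. Feedback inhibitors have a median of 0.92 and other immediate early genes of 0.58, while the members lie on both sides of 0 with a median of 0.16.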

How the data were processed

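RNA-seq was measured in 4 libraries of cultured astrocytes, 2 WT and 2 labelled KO. Paired-end Illumina reads had been filtered and placed on the mouse build mm10 by the authors. The aligner, counter, annotation release and strand setting are not given in the sources used here. The deposited values are a signal per gene and library, named as FPKM, but hold counts scaled by a size factor for each library, without a length correction: 100% came out as whole reads (within 0.01 read) once that factor was undone, so reads were recovered for all 25393 genes. The planned test was kept on these values. FPKM was computed here from the reads, the deposited gene lengths and the reads on genes.

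Also deposited, and not used, were the genotype means, the log2 ratio of the genotypes and its p-value, raw and adjusted. Genes with a mean of at least 1 (22094) were compared with limma 3.58.1 in R 4.3.3 on log2(normalized count + 1), with a variance trend and Benjamini-Hochberg adjustment. Recovered reads of the same genes went into DESeq2 1.42.0 and, with its quasi-likelihood test, edgeR 4.0.16. All tests were first run on simulated counts with known changes. These had the same spread for all genes, and recovery was required only for changes larger than those of the members. The check therefore does not show what the tests recover here. Python 3.11.15 was used for summaries and matplotlib 3.10.9 for plots. Counting error is only part of the spread: the median chi-square per gene between same-labelled libraries was 8.04 for WT and 27.1 for labelled KO, against 0.455 for sampling noise.

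The members and gene lists were chosen with earlier results of these data known. Named beside the members are, from each of 5 lists, at most 2 genes a direction with the largest log2 fold change among those with a mean of at least 50 and no overlap between the groups. Alternatives were other pseudocounts, filters, scalings and variance models, a replicate block, and leaving out each library. Gene positions were compared with GENCODE M21, and promoters came from RefSeq on GRCm38.p6, cut to the 250 bases before the start.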

Additional observations from a re-analysis of the deposited data

How the results depend on the processing

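With 2 libraries per label and no member past an adjusted p of 0.05, these data limit statements to sizes and their spread. No member passed an adjusted p under 0.05 under any of the alternatives run. Over all tested genes limma and edgeR called 0 (3032 and 2733 at an unadjusted p under 0.05) and DESeq2 called 1088, of which 2 were other immediate early genes, 1 a feedback inhibitor and 3 AP-1 targets. No bZIP partner or upstream gene was called. In edgeR 3 members had an unadjusted p under 0.05 (12.4% of all tested genes), Fosl1 higher and Junb and Atf3 lower. DESeq2 gave these and Egr1, which was higher. Limma without a variance trend gave 2977 of all tested genes at an unadjusted p under 0.05. At an unadjusted p under 0.05 the members numbered 2 in limma, 4 with DESeq2 (which gave 2775 of all tested genes, 12.6%) and 1 without a variance trend, and from 0 (without WT replicate 1) to 3 with each library left out, with 1 without WT replicate 2. Over all tested genes that count ran from 1029 (without WT replicate 1) and 1386 (without WT replicate 2) to 4925 (without KO-labelled replicate 1). The members' median log2 fold change ran from -0.16 (without KO-labelled replicate 2) to 0.77 (without KO-labelled replicate 1) with each library left out, and from 0.11 to 0.34 under the other settings.

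With single libraries left out the log2 fold change turned sign for Fos (range -0.64 to 0.98, negative without WT replicate 1, at -0.16, or KO-labelled replicate 1), Fosl2 (-0.68 to 0.96, negative without WT replicate 1, at -0.19, or KO-labelled replicate 2), Jun (-0.26 to 0.57) and Egr2 (-0.13 to 2.07), the last pair negative without KO-labelled replicate 2. Fosb, Fosl1, Junb, Jund, Egr1 and Atf3 kept their sign under every alternative run. Quantile normalization moved the median of all genes from -0.07 to 0.08 and added Egr2 to the genes that were higher without overlap. Scaling to equal sums removed Fosb from them. Without a length correction Fosl2 made up 86.2% of the Fos family sum in WT and 74.0% in the KO-labelled libraries (59.4% and 38.5% per length), and Fosl1 2.95% and 10.4% (11.5% and 31.1% per length). Libraries with the same replicate number did not deviate together (correlation -0.08), so the numbers were not taken as a pairing. With the replicate block, 2583 genes and 3 members had an unadjusted p under 0.05, and 0 an adjusted p under 0.05.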
